A study of Mus musculus with 4 samples.

Results

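The cells described here were the Jchain-high, plasmablast-like cells among cultured mouse B cells, chosen from single-cell RNA-Seq counts by a minimum of 5 unique molecular identifiers (UMIs, the tags that count RNA molecules) of Jchain. Of 19920 barcodes, 18534 passed the cell filter of at least 1000 genes and under 10% mitochondrial UMIs, and 145 of these were members (0.782%, 95% Clopper-Pearson interval 0.661 to 0.920). The other 18389 kept cells served for comparison. Plasmablasts are antibody-secreting cells on the way from an activated B cell to a plasma cell. They make immunoglobulin in bulk, fold it in an enlarged endoplasmic reticulum (ER) under the control of XBP1 and BLIMP-1 (Prdm1), and lower the transcription factors that hold the B cell state. The J chain joins IgM into pentamers and IgA into dimers, so its transcript marks cells set to secrete polymeric antibody.

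The study compared cultures of wild-type splenic B cells from C57BL/6 mice, purified by negative selection. All were cultured with CpG B ODN 1668, a ligand of TLR9, for 3 days. The ligand was used alone (Bregs-CpG, 2 samples), or LPS, PMA and ionomycin were present as well for the final 5 hours (Bregs-TLR, 2 samples). Both groups thus carried the CpG stimulus. The labels give neither age nor whether animals were pooled, while the paper states an age range for all its mice. The barcodes fell into 4 libraries by their suffix (5, 6, 7 and 8), and no suffix is tied to a sample or a condition. All values are therefore given per library, the pairs 5 with 6 and 7 with 8 are pairs of libraries and not of treatments, and no comparison here carries a p-value. Intervals cover counting error only, not variation between mice or cultures.

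The libraries held 24, 39, 54 and 28 members, which were 0.572%, 0.827%, 0.961% and 0.699% of the kept cells of libraries 5, 6, 7 and 8. The lowest of these shares had an interval of 0.367 to 0.850 and the highest one of 0.722 to 1.25, so that the intervals overlapped. Members summed to 312270, 594316, 758923 and 443659 UMIs, against 44530712, 51042434, 62879235 and 45228859 UMIs of the other cells. The median member had 11561 UMIs and 2235 genes, and the median other cell had 9588 UMIs and 2407 genes. Members thus had more UMIs spread over fewer genes. A median of 24.2% of a member's UMIs came from immunoglobulin genes (lowest 1.86%, highest 63.8%), against 0.882% in other cells. The median mitochondrial share was 5.13%, 5.52%, 3.08% and 3.29% in members and 7.23%, 7.19%, 4.62% and 4.65% in other cells, lower in members of every library. These are shares of all UMIs, so the larger immunoglobulin part of members lowers theirs. In all, 29 barcode sequences occurred in more than 1 library, and none of them was a member. A further 13 barcodes had at least 5 Jchain UMIs but failed the cell filter.

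Few cells had an intermediate number of Jchain UMIs. No Jchain UMI was seen in 18251 kept cells, 119 cells had 1 UMI, 13 had 2, 5 had 3 and 1 had 4. Above the minimum, 10 cells had 5 to 9 UMIs, 40 had 10 to 29, 52 had 30 to 99 and 43 had 100 to 577. The 6 cells just outside the minimum (3 or 4 UMIs) had 30937 UMIs of Ighm per 1000000 UMIs (CPM), Ighm being the μ heavy chain constant gene, 2789 CPM of Mzb1 and 714 CPM of Xbp1. The 10 cells just inside it (5 to 9 UMIs) had 27861 CPM of Ighm, 4239 CPM of Mzb1 and 865 CPM of Xbp1. Cells on either side of the minimum thus had similar levels of Ighm, and the 6 cells outside it included 4 with over 10% immunoglobulin UMIs. Cells with a single Jchain UMI had 4855 CPM of Ighm and 171 CPM of Xbp1, nearer to the cells without any (2160 and 90.3 CPM).

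**Figure D1:**
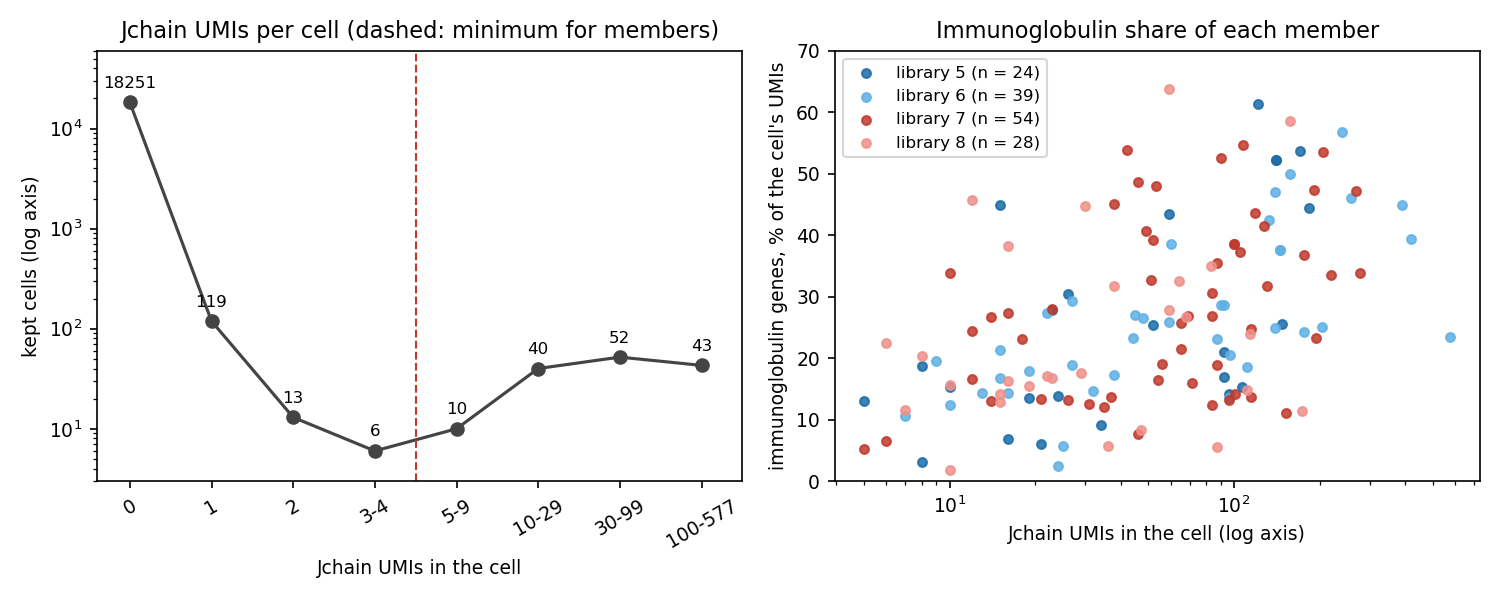
Left, kept cells (log axis) by their number of Jchain UMIs, with the minimum for members dashed; the counts fall from 18251 cells at 0 to 6 cells at 3 or 4 UMIs and lie between 10 and 52 in the classes above the minimum. Right, each of the 145 members by its Jchain UMIs (log axis) and the percentage of its UMIs from immunoglobulin genes, coloured by library; library 6 alone has members above 277 Jchain UMIs.

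The genes that usually mark plasma cells were checked next. Since Jchain chose the members, these values describe the chosen cells. Jchain (GRCm38 chr5:88519809-88527891, minus strand) was at 5162, 7151, 5871 and 3011 CPM in the members of libraries 5, 6, 7 and 8 and at 0.359, 1.04, 0.859 and 0.907 CPM in the other cells. Ighm (chr12:113418558-113422730, minus strand) was at 53255, 57439, 66424 and 41288 CPM in members and at 3324, 3484, 1136 and 1126 CPM in other cells. The members' lowest library lay above the highest of the other cells for both genes. Mzb1, an ER protein of B cells that helps IgM assembly, was at 8243, 7765, 3148 and 3041 CPM in members against 1394, 1475, 118 and 128 CPM. Other cells of libraries 5 and 6 already had over 1000 CPM of Mzb1, so the mean log2 ratio of members over other cells within a library was 3.54 (range 2.39 to 4.68), smallest in those libraries. Ratios here and below are of CPM + 5, averaged over the 4 libraries with equal weight, so that they understate the fold of genes that lie below 5 CPM in the other cells.

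Xbp1 (chr11:5520659-5525893, plus strand), the transcription factor of the unfolded protein response that plasma cells need, was at 1367, 1418, 652 and 410.2 CPM in members and at 75.7, 76.3, 105 and 104 CPM in other cells. Members of libraries 5 and 6 had over 2 times the level of members of 7 and 8, while the other cells were slightly lower in 5 and 6. Derl3 (chr10:75893413-75895941, plus strand), which helps move misfolded proteins out of the ER, was at 343, 326, 211 and 149 CPM against 18.3, 18.3, 9.08 and 8.47 CPM, and Txndc5 (chr13:38500079-38528824, minus strand), a protein disulfide isomerase, at 631, 698, 429.6 and 365 CPM against 26.5, 26.8, 29 and 26 CPM. For these genes too no library of members overlapped the other cells. All 5 markers other than Jchain were therefore higher in members of every library, with a median log2 ratio of 3.79. Defining surface markers of mature plasma cells were near 0. Sdc1 (CD138) was at 3.2, 8.41, 5.27 and 2.25 CPM in members, from 11 UMIs in all, and at 0.180, 0.118, 7.47 and 6.19 CPM in other cells, and Tnfrsf17 (BCMA) at 0, 6.73, 1.32 and 0 CPM in members. The label plasmablast-like thus rested on the secretory genes and not on CD138.

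**Figure D2:**
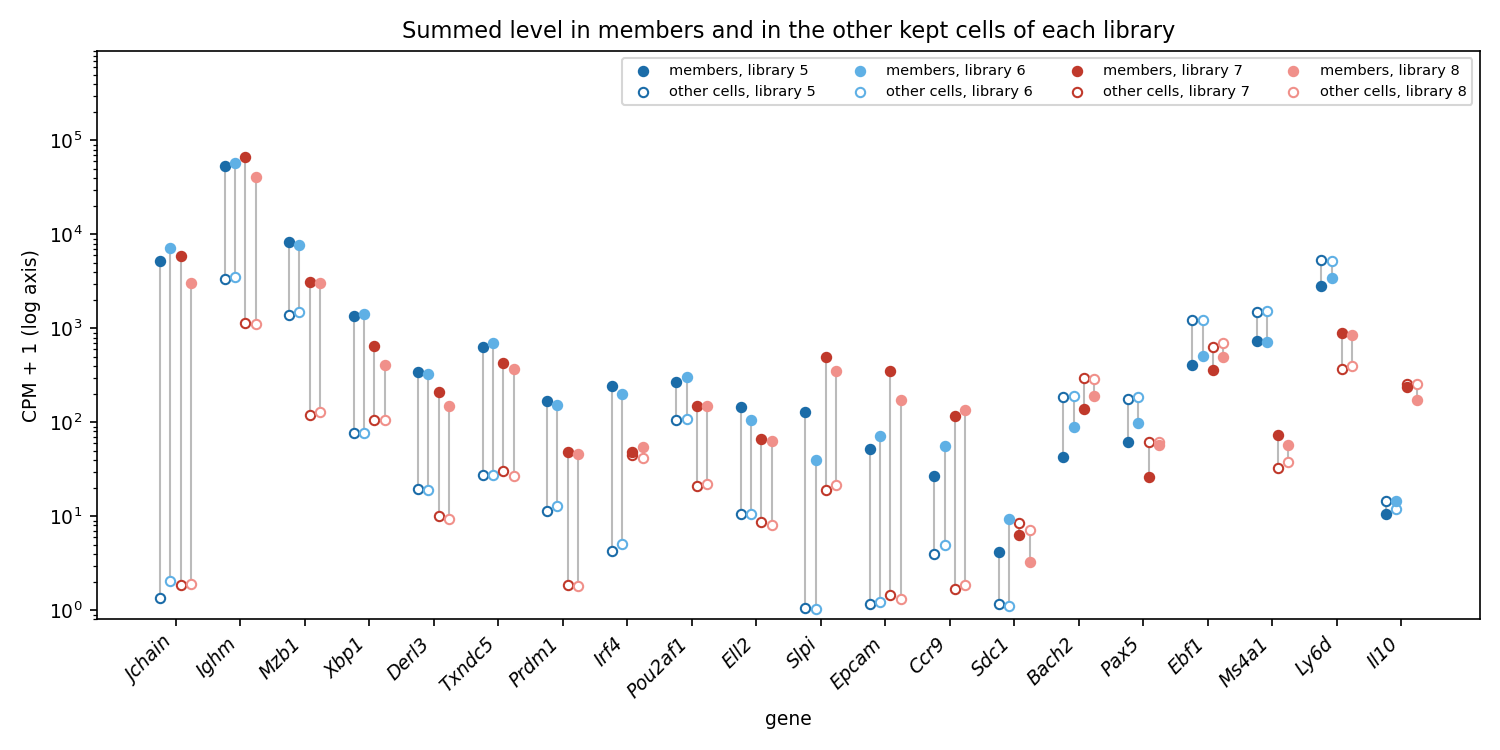
Summed level (CPM + 1, log axis) of 20 genes in the members (filled) and in the other kept cells (open) of libraries 5 to 8, each pair of points joined by a line. Members lie above the other cells in every library from Jchain to Ccr9, for Irf4 only by a small margin in libraries 7 and 8, and below them in every library for Bach2 and Ebf1.

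Of the transcription factors of the plasma cell programme, 7 of the 8 compared were higher in members. The 7 include Xbp1, already given above as a marker. A gene was compared when its mean level was at least 20 CPM, and was called higher or lower when its mean log2 ratio reached 1 in size with the same sign in every library. By this rule 4.2% of all 4548 genes compared were called higher and 4.35% lower. Prdm1 (chr10:44437177-44528501, minus strand), which encodes BLIMP-1, the repressor that shuts down the B cell programme, was at 169.7, 153, 47.4 and 45.1 CPM in members and at 10.4, 11.9, 0.843 and 0.818 CPM in other cells, a mean log2 ratio of 3.25 (range 3.11 to 3.50). Members of libraries 5 and 6 again had the higher levels. Without the added 5 CPM, the fold was 16.3, 12.9, 56.3 and 55.1, larger in libraries 7 and 8, where other cells had under 1 CPM. Irf4, which drives plasma cell differentiation at high levels, was at 240.2, 200.2, 47.4 and 54.1 CPM in members and at 3.26, 4.09, 43.7 and 40.5 CPM in other cells. Its members stood far above the other cells in libraries 5 and 6 and beside them in 7 and 8, so its mean ratio of 2.47 spanned 0.11 to 4.89, and without the cells of highest UMI count the mean was 2.5 but the call was lost, since library 8 then had a ratio of -0.01. Ell2, an elongation factor that favours the secreted form of the heavy chain, had a ratio of 2.81 (range 2.47 to 3.34), Pou2af1, a B cell coactivator of immunoglobulin promoters, one of 1.98 (range 1.30 to 2.62), Zbtb20, a factor of long-lived plasma cells, one of 1.32 (range 0.60 to 2.23), and the coactivator Sub1 one of 1.15 (range 1.01 to 1.30). Zbtb32 was not called (-0.38).

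Across all genes, 191 were higher in members, 9 of them immunoglobulin genes, and 198 were lower. The median of all genes compared was -0.34, and the split of calls depended on the denominator. With immunoglobulin genes left out of the denominator, the median was -0.03 and 306 genes were higher against 76 lower, so that 80.1% of the calls were higher instead of 49.1%. TMM scaling gave a median of -0.24 with 216 higher and 138 lower (61.0% higher). Without the cells above the 95th percentile of UMIs of their library, 236 were higher and 546 lower (30.2% higher). All 191 higher genes were also called without immunoglobulin in the denominator, but 71 of the 198 lower genes were, so the lower calls were the less firm. No higher gene owed over 50% of its UMIs in members to a single cell.

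After Jchain, the gene with the largest ratio that is not an immunoglobulin gene was Tmed6, a cargo receptor of the p24 family in the early secretory pathway. It was at 1134, 1211, 683 and 491 CPM in members and at 5.7, 6.56, 1.21 and 0.553 CPM in other cells, a ratio of 6.68 (range 6.48 to 6.79) on the scale of CPM + 5. The plain fold was 199, 185, 565 and 889, so it differed by over 4 times between libraries. Apoe, the lipid-carrying apolipoprotein, was at 1719.7, 658, 792 and 859 CPM against 20.5, 23.1, 14.6 and 14.7 CPM (log2 ratio 5.36, range 4.56 to 6.08), and it was seen in 66.9% of members. Macrophages also make much Apoe. The list of 10 monocyte, macrophage and neutrophil markers summed to 19.2, 10.1, 9.22 and 2.25 CPM in members and to 3.84, 4.68, 3.05 and 3.52 CPM in other cells. Cd68 was its most abundant gene in members, and 7 of the 10 had no UMI there, Lyz2 and C1qa among them. Their part in the level of Apoe was not tested. Lax1, an adaptor that dampens antigen receptor signalling, was at 125, 79.1, 65.9 and 42.8 CPM against 3.1, 2.92, 1.19 and 1.13 CPM. Atf5, a stress-response transcription factor, reached 112, 70.7, 235 and 156 CPM against 7.95, 6.21, 14.6 and 12.5 CPM, and the crystallin gene Crybb1 83.3, 38.7, 44.8 and 58.6 CPM against 2.27, 2.21, 0.334 and 0.685 CPM. For each of these genes, every library of members lay above every library of other cells.

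Many genes of the ER and the secretory pathway were higher in members. Of the 106 genes in 6 lists (chaperones, translocation, glycosylation, degradation, ER to Golgi transport, and unfolded protein response), 95 were compared, 51 were higher (53.7%, against 4.2% of all genes) and 1 was lower, and the median log2 ratio was 1.10. The ratio was above 0 in all 4 libraries for 74 of them. The markers Mzb1, Txndc5 and Derl3 are also in these lists, so the counts are not separate from the marker values above. Among the chaperones and folding enzymes, 20 of 23 were higher, with a median of 2.04 (2.56, 2.27, 1.77 and 1.20 in libraries 5, 6, 7 and 8). Hspa5 (BiP), the main ER chaperone and the one that holds free heavy chains, was at 1732, 1753, 3477 and 2519.9 CPM in members and at 362, 393, 873 and 803 CPM in other cells, a ratio of 2.00 (range 1.64 to 2.24). Unlike Xbp1, it was highest in libraries 7 and 8 in members and other cells alike. Hsp90b1 (GRP94) was at 3862, 3177, 2074 and 1977 CPM against 342, 369, 570.4 and 544 CPM, and the disulfide isomerase Pdia4 at 986, 922, 423 and 347 CPM against 117, 129.9, 49.9 and 44.8 CPM. Members lay above the other cells of their own library for each. Creld2, a folding factor induced by ER stress, was at 484, 374, 194 and 169 CPM against 18.5, 22.1, 38.3 and 37.8 CPM (log2 ratio 3.10, range 2.02 to 4.38), and Fkbp11, a prolyl isomerase typical of secretory cells, had a ratio of 2.98 (range 2.23 to 3.67). Fkbp2 (0.92) and Canx (0.28) were among the 3 not called.

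Of the ER-associated degradation genes, 9 of 16 were higher (median 1.47). Edem1, which directs misfolded glycoproteins to degradation, was at 329.8, 339.9, 182 and 214 CPM in members and at 26.3, 26.7, 15.7 and 16.2 CPM in other cells, a ratio of 3.35 (range 3.17 to 3.44) that scarcely differed between libraries. Edem2 (2.55), Herpud1 (2.12) and Derl1 (1.81) were higher too, while the ubiquitin ligase Syvn1 (0.62) and the extraction ATPase Vcp (0.20) were not called. Translocation and signal peptidase genes were higher in 10 of 22 (median 0.88), led by Ssr4 (2.17), a subunit of the translocon-associated complex, and the signal peptidase subunits Spcs3 (2.06) and Sec11c (2.06). Those of the signal recognition particle, such as Srp14 (-0.04), were not called. N-glycosylation genes were higher in 5 of 11 (median 0.98; Ddost, a subunit of the oligosaccharyltransferase, 1.67), but in 1 when library 5 or library 6 was left out. ER to Golgi transport genes were higher in 4 of 16 (median 0.53), with Lman1, the lectin that carries glycoproteins out of the ER, at 1.74. The share called higher was thus largest for chaperones, while the lowest place passed from ER to Golgi transport to N-glycosylation when library 5 or 6 was left out.

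The promoters of ER genes often hold the ER stress response element (ERSE), CCAAT and CCACG with any 9 bases between them, which ATF6 and XBP1 can bind with NF-Y. It was searched on both strands in the 250 bases before each start in RefSeq's GRCm38.p6 annotation. It was found in 37 of 32851 promoters (0.113%), in 10 of the 3628 genes compared that had a promoter entry (0.276%) and in 9 of 76 such genes of the ER lists (11.8%). Of the 39 ER genes called higher with an entry, 7 held it (17.9%), against 0 of the 108 other genes called higher that are not immunoglobulin genes. The 19 bases of each match are shown for the 9 ER genes, called or not, because they are where each gene holds the motif, written with CCAAT first and with the letters of the motif in capitals. The bases between, in lower case, differ from match to match. These genes were picked after their values were seen, by the match alone.
Derl3 (chr10:75893242-75893260, log2 ratio 3.79): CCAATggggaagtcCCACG
Creld2 (chr15:88819520-88819538, 3.1): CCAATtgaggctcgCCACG
Hsp90b1 (chr10:86705533-86705551, 2.57): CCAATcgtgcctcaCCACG
Hsp90b1 (chr10:86705638-86705656, 2.57): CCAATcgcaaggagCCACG
Dnajc3 (chr14:118937827-118937845, 2.46): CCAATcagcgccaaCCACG
Hspa5 (chr2:34772025-34772043, 2.00): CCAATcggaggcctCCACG
Pdia6 (chr12:17266491-17266509, 1.76): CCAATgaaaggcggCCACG
Calr (chr8:84847075-84847093, 1.26): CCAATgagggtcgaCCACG
Syvn1 (chr19:6046532-6046550, 0.62, not called): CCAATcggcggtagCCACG
Canx (chr11:50325800-50325818, 0.28, not called): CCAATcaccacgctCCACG

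Matches lay between 25 bases (Syvn1) and 193 bases (Hsp90b1) before the start. In Hspa5 it lay 46 bases before the start and in Derl3 137. The 250-base promoters of the marker Derl3, of Creld2 and of Hspa5 are printed in full on the gene's strand, with the match in capitals, so that its place can be seen.
Derl3 (chr10:75893148-75893397, plus strand): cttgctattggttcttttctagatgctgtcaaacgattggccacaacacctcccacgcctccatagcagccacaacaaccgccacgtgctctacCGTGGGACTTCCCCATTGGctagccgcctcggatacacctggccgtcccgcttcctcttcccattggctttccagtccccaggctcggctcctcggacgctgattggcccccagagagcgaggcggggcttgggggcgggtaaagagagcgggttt
Creld2 (chr15:88819396-88819645, plus strand): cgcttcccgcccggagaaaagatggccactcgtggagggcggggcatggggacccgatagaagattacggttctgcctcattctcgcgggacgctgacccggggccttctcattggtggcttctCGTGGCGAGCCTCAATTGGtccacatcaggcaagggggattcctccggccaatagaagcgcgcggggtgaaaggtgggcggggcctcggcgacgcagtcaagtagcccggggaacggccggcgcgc
Hspa5 (chr2:34771840-34772089, plus strand): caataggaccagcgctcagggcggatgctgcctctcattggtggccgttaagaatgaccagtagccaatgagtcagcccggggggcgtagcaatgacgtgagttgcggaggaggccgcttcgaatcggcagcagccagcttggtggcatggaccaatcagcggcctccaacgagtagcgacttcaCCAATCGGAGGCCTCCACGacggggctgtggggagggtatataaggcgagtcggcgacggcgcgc
The unfolded protein response element TGACGTGG was in 0.563% of all promoters and 1.21% of all genes compared. It was in 6.58% of the ER genes compared, 5.13% of those called higher and 1.85% of the other genes called higher. The short core CCACG, which is also the end of the ERSE, was in 28.3% of all promoters and 49.2% of all genes compared. For CCACG the shares were 65.8% of the ER genes compared, 69.2% of those called higher and 51.9% of the other genes called higher. The windows of Jchain and Xbp1 held no match to any of the 3. A match describes the sequence and shows neither a bound site nor a cause.

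Genes that report ER stress did not all move together. Of 7 compared, 3 were higher and 1 lower, with a median log2 ratio of 0.84. The ratio was above 0 in every library for 5 of them and below 0 in every library for 1. Atf4 (0.60) and Chac1 (0.84) were among these 5 but were not called. With immunoglobulin left out of the denominator, Chac1 was called higher (1.13). Ddit3 (CHOP), the stress-induced transcription factor linked to cell death, was at 60.8, 53.8, 196 and 142 CPM in members and at 28.7, 27.6, 60.1 and 52.3 CPM in other cells (log2 ratio 1.20, range 0.85 to 1.63). Ppp1r15a (GADD34), which restores translation after stress, had a ratio of 1.18 (range 0.64 to 1.77), not called without library 8 (0.98), and the asparagine synthetase gene Asns one of 1.36 (range 0.61 to 2.07). Atf3, a stress-induced repressor, was lower (log2 ratio -1.36, range -2.21 to -0.74), and the sensor Atf6 was not called (0.03). Among amino acid transporters, 2 of 5 were higher. Slc3a2, the heavy subunit of the leucine transporter, was at 263, 247, 1016 and 654 CPM against 46, 46.1, 174 and 165 CPM (log2 ratio 2.29, range 1.96 to 2.52), and its light subunit Slc7a5 had a ratio of 1.26 (range 1.00 to 1.65). Both subunits were highest in libraries 7 and 8.

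**Figure D3:**
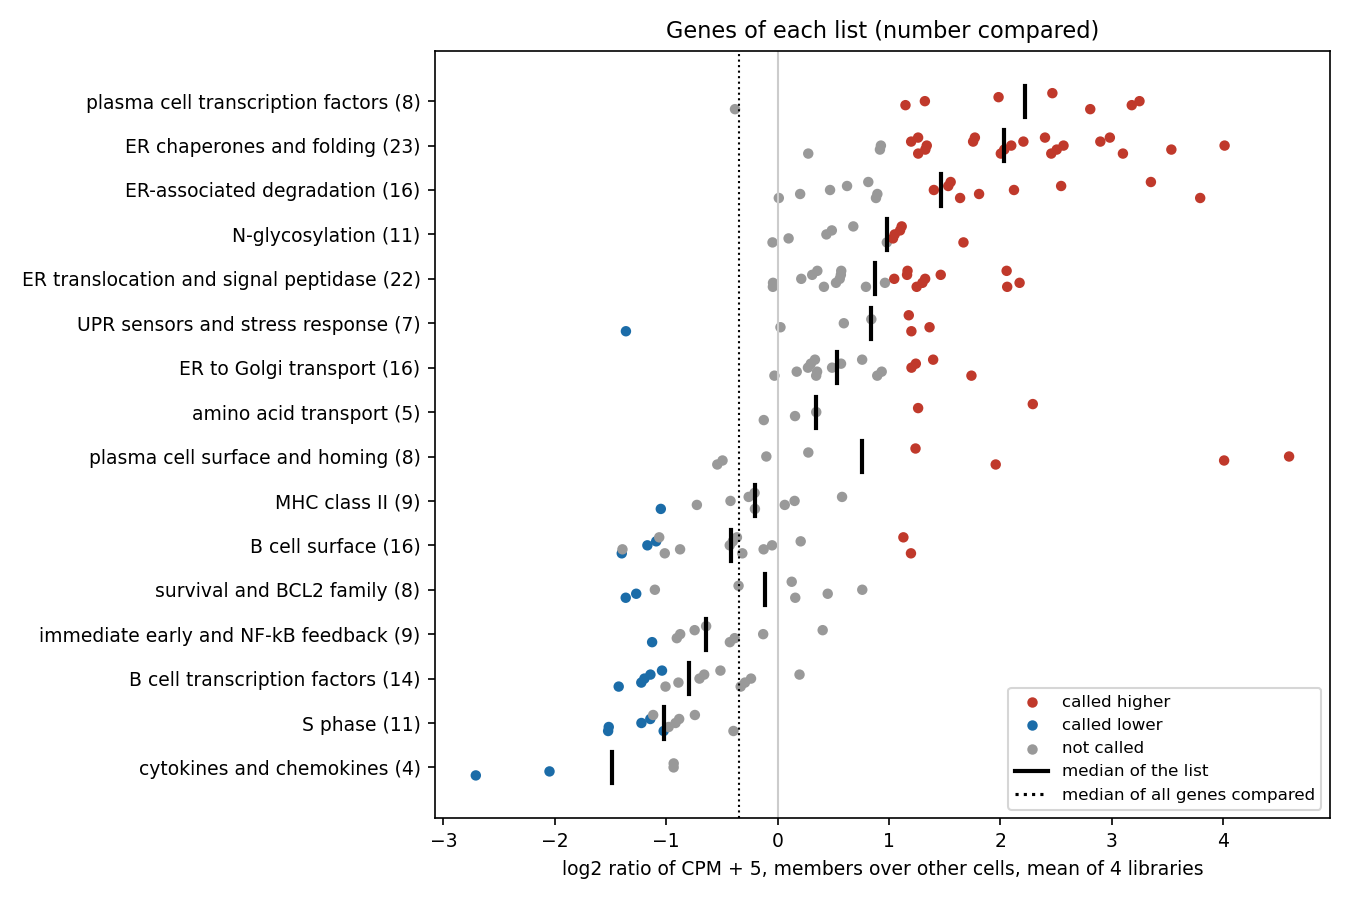
Log2 ratio of CPM + 5 of members over other kept cells (mean of 4 libraries) for each gene compared in 16 lists, with called genes coloured, the median of each list as a bar and the median of all genes (-0.34) dotted. ER chaperones (median 2.04) and plasma cell transcription factors (2.23) lie furthest to the right of these 16 lists. The lists of plasma cell markers and of immunoglobulin genes are among those not shown. The markers Mzb1, Txndc5, Derl3 and Xbp1 are also members of lists that are shown. S phase genes (-1.02) and cytokines lie to the left.

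Transcription factors of the B cell state were lower or not called in members. Of 14 compared, 5 were lower and 0 higher (median -0.80). Bach2, which restrains Prdm1 in B cells, was at 41.6, 87.5, 137 and 192 CPM in members and at 186, 189, 298 and 289.7 CPM in other cells (log2 ratio -1.19, range -2.03 to -0.58). The gap was smallest in library 8, where Bach2 was seen in 39.3% of members and 86.7% of other cells. Without the cells of highest UMI count, members were at 31.5, 44.96, 95.03 and 104 CPM and the ratio was -1.83. Ebf1, a factor of B lineage commitment, was at 403, 508, 358 and 494 CPM against 1225, 1216, 635 and 696 CPM (log2 ratio -1.04, range -1.59 to -0.49). Spib (-1.43), Id3 (-1.22) and Klf2 (-1.14) were lower as well. Pax5, the keeper of B cell identity, was at 60.8, 97.6, 25 and 56.3 CPM against 175, 184, 61.2 and 60.3 CPM, lower in every library but not called (mean -0.89). In library 8 it was seen in 14.3% of members and 40.4% of other cells, and the 2 largest members, of 79271 and 68571 UMIs, made up 33.3% of that library's member UMIs. Without the cells of highest UMI count, Pax5 was at 55.2, 58.2, 7.92 and 19.9 CPM in members and was called lower (-1.70). With immunoglobulin left out of the denominator, or without library 5, only 1 of the 14, Spib, was called lower. Without the cells of highest UMI count, 8 of 14 were, so the size of this difference depended on those choices.

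B cell surface genes were mixed, with 2 higher and 3 lower of 16. Cd79a, the signalling chain of the antigen receptor, was at 5130.2, 4615, 3413 and 2941 CPM in members and at 3058, 3223, 1028 and 1014 CPM in other cells (log2 ratio 1.13, range 0.52 to 1.73), and Fcrla, an ER-resident immunoglobulin-binding protein of B cells, had a ratio of 1.20 (range 0.60 to 1.67). Cd83 (-1.40), the tetraspanin Cd37 (-1.17) and the costimulatory ligand Cd86 (-1.09) were lower. Several of these calls rested on 1 library: Cd79a was not called without library 7 (0.93) or library 8 (1.00), Cd37 just missed the threshold without library 5, and Cd86 was not called without library 7 (-0.79). With immunoglobulin left out of the denominator, Cd37 (-0.84) and Cd86 (-0.93) lost their calls as well, which left 1 of 16 lower. Ms4a1 (CD20) was at 727, 708, 72.5 and 56.3 CPM in members against 1504, 1519.8, 31.5 and 36.8 CPM, below the other cells in libraries 5 and 6 and above them in 7 and 8. Among 9 genes of MHC class II antigen presentation, 1 was lower, H2-Oa (-1.05). H2-Oa was not called without library 5 (-0.83), without library 6 (-0.91) or with immunoglobulin left out of the denominator (-0.83). The median of the 9 genes was -0.21, or 0.08 without immunoglobulin in the denominator. Cd74, the invariant chain, was at 5643, 5026, 3763 and 4952 CPM in members and at 6867, 7159, 5941 and 5839.7 CPM in other cells. The median of the list lay close to that of all genes compared (-0.34).

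Of 19 surface and homing genes of plasma cells, 8 were compared, of which 4 were higher (Epcam, Slpi, Slamf7 and Itga4) and 0 lower. Slpi, a secreted protease inhibitor, was at 128, 38.7, 490.2 and 354 CPM in members and at 0.0674, 0.0392, 18.3 and 20.8 CPM in other cells (log2 ratio 4.01, range 3.12 to 4.72), highest in libraries 7 and 8 and present in 27.6% of members. Epcam, an adhesion molecule, was at 51.2, 70.7, 350.5 and 171 CPM against 0.180, 0.235, 0.445 and 0.332 CPM. After thinning every cell to 5000 UMIs, 43.9% of members had an Epcam UMI against 0.135% of other cells (58.6% and 0.223% without thinning). Its level in members was highest in libraries 7 and 8. Ccr9, the receptor that guides antibody-secreting cells to the small intestine, was at 25.6, 55.5, 117 and 135 CPM against 2.99, 4.0, 0.700 and 0.840 CPM (log2 ratio 3.42, range 1.94 to 4.59). Ccr9 and the tetraspanin Cd9 (2.97), also higher, were in other lists. Slamf7 had a log2 ratio of 1.96 and the integrin chain Itga4 one of 1.24, while Cd44 (-0.10), Cd38 (-0.54) and the BAFF and APRIL receptor Tnfrsf13b (-0.49) were not called.

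Marker lists of T, NK, myeloid and dendritic cells and platelets summed to under 20 CPM in the members of every library. T cell markers summed to 9.61, 3.37, 1.32 and 0 CPM in the members of libraries 5, 6, 7 and 8, with 5 of 8 genes at 0. All 5 NK cell markers were at 0. Those of monocytes, macrophages and neutrophils are given above with Apoe. Dendritic cell markers summed to at most 10.1 CPM, and platelet markers to at most 6.4 CPM. The plasmacytoid dendritic cell list summed to 64.0, 62.3, 129 and 137 CPM in members against 5.79, 5.98, 3.99 and 4.42 CPM, with Ccr9 its most abundant gene and the only one compared, while the defining marker Siglech was at 0. The stromal and endothelial list summed to 35.2, 28.6, 21.1 and 27.0 CPM in members against 92.7, 96.5, 51.7 and 45.7 CPM, Pecam1 being its most abundant gene. Hbb-bt, a globin gene of erythroid cells, was at 0, 0, 51.4 and 83.4 CPM in members and at 4.6, 4.35, 220 and 287 CPM in other cells, lower in members of libraries 7 and 8, and higher in these libraries than in 5 and 6 in both kinds of cell.

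Few members carried many transcripts of the cell cycle lists. At least 10 UMIs over 14 genes of the G2/M phase were seen in 0 of 24, 6 of 39, 4 of 54 and 1 of 28 members, together 7.59% (3.85 to 13.2), against 6.87% of other cells. The share of other cells lay within the interval of the members. Cells were not thinned for these counts. Mki67, the proliferation marker, was at 25.6, 244, 22.4 and 15.8 CPM in members, and library 6 stood out. It was uneven among members, at 48.0, 199, 10.5 and 68.8 CPM in those with 5 to 9, 10 to 29, 30 to 99 and 100 to 577 Jchain UMIs. For the S phase list the same minimum was reached by 0%, 15.4%, 14.8% and 14.3% of members and by 9.54%, 9.58%, 26.9% and 26.5% of other cells of libraries 5, 6, 7 and 8, above the other cells in library 6 and below them in the rest. Of 11 S phase genes, 5 were lower (median -1.02; the thymidylate synthase gene Tyms -1.52, the ribonucleotide reductase gene Rrm2 -1.52), but 0 were when library 5 was left out. No member of library 5 reached the minimum for either list. Leaving out library 6 gave 9 of 11 lower, leaving out the cells of highest UMI count 9 of 10, and leaving immunoglobulin out of the denominator 2 of 11, so the S phase calls depended on these choices.

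The members expressed almost exclusively IgM. Ighm was the most abundant heavy chain constant gene in 142 of 145 members, with a median of 705.5 UMIs, and it made up at least 89.4% of the heavy chain UMIs in each of them. Ighg2b led in 2 members, from library 7 (260 UMIs, 99.6% of the heavy chain UMIs) and library 8 (672 UMIs, 99.7%), and Ighg2c in 1 member of library 5 (924 UMIs, 100%, with 122 Jchain UMIs). Igha, Ighe, Ighg1 and Ighg3 led in 0 members. With at least 20 UMIs and 80% in a single gene, 143 members were assigned, 140 of them to Ighm and the same 3 to the γ genes. The κ gene Igkc led in 127 members (median 1981 UMIs), and a λ gene in 18, namely Iglc1 in 8, Iglc2 in 7 and Iglc3 in 3. The λ share was 12.4% (7.53 to 18.9), against 10.1% of the 15994 other cells with at least 5 light chain UMIs, a difference within the counting error. Iglc1 to Iglc3, and Ighg2b and Ighg2c, are related genes that can share reads, so these splits are uncertain.

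Variable genes were diverse among the members, as far as 3′ libraries read them. A leading Ighv gene (at least 3 UMIs and 50% of that family) was found in 77 members, spread over 34 genes, and a leading light chain variable gene in 110 members, spread over 42 genes. The median member had 3 Ighv UMIs and 10 of Igkv or Iglv genes, so many members were too shallow to assign. Ighv10-1 led in 11 members, Ighv6-3 in 8 and Ighv10-3 in 7. Of the 63 members with both chains there were 50 different pairs, and 7 pairs occurred in more than 1 member. Of these 7 pairs, 4 had Iglv1 as the light chain gene, and 20 of the 33 members led by Iglv1 had Igkc as their constant gene, so that pairs with Iglv1 are uncertain. The pair Ighv11-2 (chr12:114048241-114048812) with Igkv14-126 (chr6:67896172-67896642) was found in 3 members, all of library 7 and all with Ighm and Igkc. These 3 cells had 9, 10 and 7 UMIs of Ighv11-2 and 8, 10 and 32 of Igkv14-126. Among the 18389 other cells, 0 had at least 3 UMIs of Ighv11-2 and 1 had that many of Igkv14-126, but few other cells could have: 0.430% of them, against 53.1% of members, had 3 UMIs of any Ighv gene, and 1.11% against 80% of any light chain variable gene. Whether these 3 cells descend from a single B cell was not tested, since the junction sequences were not analysed here.

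Of 16 genes examined by the number of Jchain UMIs within the members, 5 were higher in each next class in both pairs of libraries (Mzb1, Xbp1, Txndc5, Sec11c and Prdm1), and Cd74 and H2-Aa were lower. The other 9 (Hspa5, Derl3, Sdf2l1, Irf4, Pax5, Ms4a1, Ly6d, Bach2 and Il10) had no order that both pairs shared. Levels were taken per 1000000 UMIs that are not immunoglobulin, and separately in each pair of libraries. Xbp1 was at 1003, 1659 and 3298 in members of libraries 5 and 6 with 5 to 29, 30 to 99 and 100 to 577 Jchain UMIs, and at 341, 821 and 945 in libraries 7 and 8. Txndc5 was at 386, 907 and 1656, and at 191, 545 and 812. Cd74 was at 7989, 6990 and 4574, and at 6492, 5476 and 4105. H2-Aa, a class II α chain, was at 1791, 1349 and 481, and at 762, 635 and 431. The main ER chaperone Hspa5 was at 1398, 3128 and 2928, and at 3943, 3622 and 4684, and Derl3 at 280, 528 and 593, and at 199, 121 and 478. Bach2 was at 134, 34.4 and 76.0, and at 226, 176 and 218. The classes held 24, 18 and 21 members in libraries 5 and 6 and 26, 34 and 22 in libraries 7 and 8, and their median immunoglobulin share was 14.8%, 23.2% and 42.5%, and 16.7%, 26.9% and 35.3%. Members of higher classes also had more UMIs in all, and these values carry no test. The classes mix libraries in unequal numbers: libraries 7 and 8 gave 12 and 14, 24 and 10, and 18 and 4 cells. Within each library alone, Mzb1, Txndc5 and Sec11c were higher and Cd74 lower in each next class in all 4, whereas Xbp1 and Prdm1 kept their order only in libraries 6 and 7, and H2-Aa only in 5 and 6. Single cells of 87534 and 68571 UMIs made up 23.2% and 22.4% of the UMIs of the lowest classes. Without the cells of highest UMI count, Txndc5 was at 708, 907 and 2119, and at 269.8, 889 and 1054, and Cd74 at 9780, 6990 and 4694, and at 7448, 4511 and 3480, in the same order, but Xbp1 was at 1668, 1659 and 4160 in libraries 5 and 6 and so lost it there. Hspa5 and Sdf2l1 were then higher in each next class in both pairs, Hspa5 being at 2176, 3128 and 3987, and at 4815, 5561 and 5979. In library 8, with 3 cells then left in the highest class, Mzb1, Txndc5, Sec11c and Cd74 lost the order as well.

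**Figure D4:**
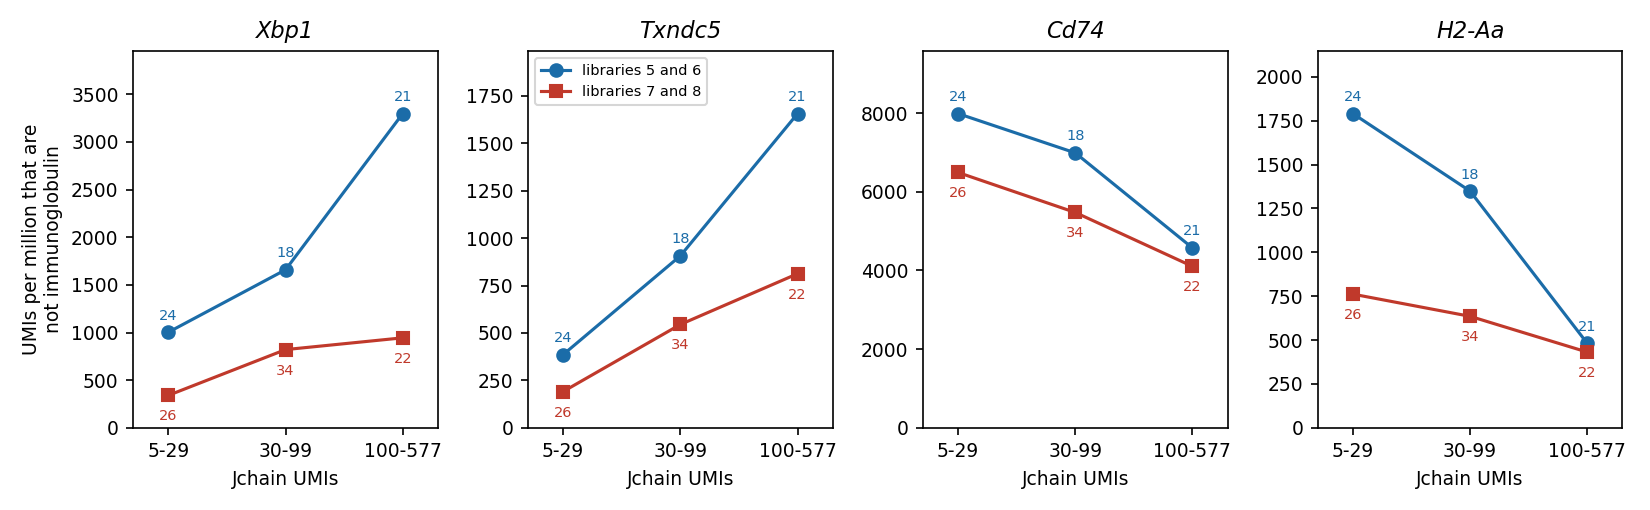
Level per 1000000 UMIs that are not immunoglobulin of Xbp1, Txndc5, Cd74 and H2-Aa in members with 5 to 29, 30 to 99 and 100 to 577 Jchain UMIs, in libraries 5 and 6 (circles) and 7 and 8 (squares); the small numbers are cells. Xbp1 and Txndc5 increase from class to class in both pairs, and Cd74 and H2-Aa decrease.

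The members also differed between the pairs of libraries. Of 4243 genes compared, 311 (7.33%) were higher in members of libraries 5 and 6, both libraries above both of the other pair by a mean log2 difference of at least 1, and 737 (17.4%) were higher in 7 and 8. Among other cells of the same libraries the shares were 8.89% and 13.4% of 4714 genes. Of the 952 genes apart in members that were also compared in other cells, 599 (62.9%) were apart the same way there and 3 the opposite way. Most of what separated the members of the pairs thus also separated the other cells. Klf2, which keeps lymphocytes quiescent, was at 118, 173, 3.95 and 2.25 CPM in members, with a log2 difference of 4.20 (5.18 in other cells). Only 23 members had a Klf2 UMI, and 35.4% of its UMIs in members came from 1 cell. Ms4a1 differed by 3.39 (5.28). Hvcn1, a proton channel of B cells, differed by 3.78 (2.69), while Amigo2, an adhesion protein, differed by 2.80 in members and lay under the level minimum in other cells (3.3, 3.29, 1.02 and 0.840 CPM), where it was not compared. In libraries 7 and 8 the members had 3 and 1 UMIs of Klf2, 4 and 1 of Hvcn1 and 4 and 4 of Amigo2, at or near the floor of 3 UMIs, so that the size of these differences rests on the added 5 CPM.

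On the side of libraries 7 and 8, Il10, the cytokine that defines many regulatory B cells, was at 9.61, 13.5, 239.8 and 174 CPM in members and at 13.7, 11.1, 255 and 254 CPM in other cells. After thinning to 5000 UMIs, 57.9% of members and 56.7% of other cells of libraries 7 and 8 had an Il10 UMI, against 3.17% and 3.91% in libraries 5 and 6 (without thinning 75.6%, 70.8%, 11.1% and 7.44%). At 5000 UMIs that are not immunoglobulin, the shares in libraries 7 and 8 were 68.2% (55.6 to 79.1) and 57.3%. Il10 was not called between members and other cells (-0.20). Spp1 (osteopontin) was at 0, 0, 502 and 428 CPM in members and at 12.7, 7.54, 1427 and 1220 CPM in other cells. Serpinb6b, an intracellular protease inhibitor, was at 0, 0, 327 and 289 CPM against 2.67, 1.84, 89.5 and 92.5 CPM. Both genes had no UMI in members of libraries 5 and 6, where 3 UMIs would be 9.61 and 5.05 CPM. Nupr1, a stress-induced chromatin protein, was at 38.4, 43.7, 784 and 491 CPM against 2.49, 2.06, 118 and 102 CPM, higher in members of every library (log2 ratio 2.56, range 2.22 to 2.79) and far higher in 7 and 8.

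**Figure D5:**
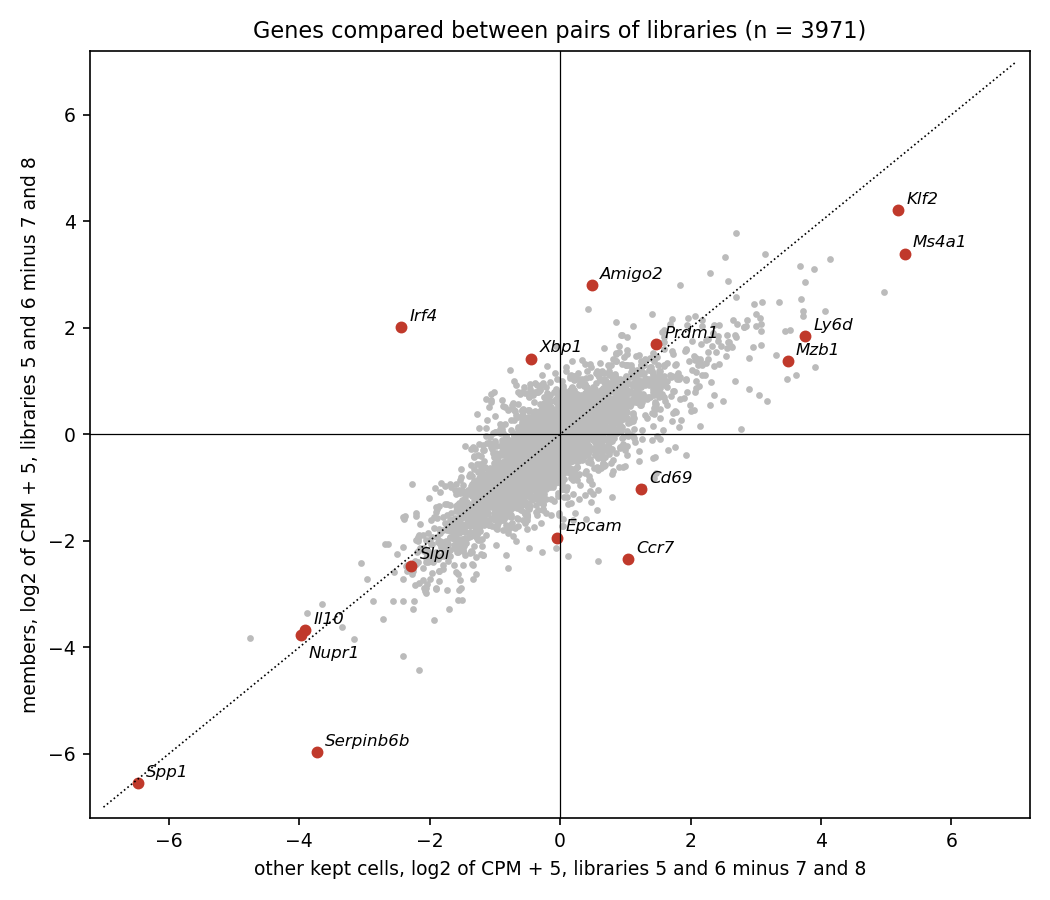
Difference of mean log2(CPM + 5) between libraries 5 and 6 and libraries 7 and 8 in members (vertical) against that in the other kept cells (horizontal) for 3971 genes, with the line of equality dotted. Klf2, Ms4a1, Spp1 and Il10 lie at the ends in both, whereas Irf4, Cd69 and Ccr7 have opposite signs.

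The 3 genes apart in opposite ways were Irf4, Cd69 and Ccr7, of which Cd69 was picked after its values were seen. Irf4 was higher in members of libraries 5 and 6 by 2.01 and higher in other cells of 7 and 8 (-2.44). In thinned cells, 55.6% of members and 1.52% of other cells of libraries 5 and 6 had an Irf4 UMI, and 15.8% and 16.5% of those of 7 and 8 (without thinning 77.8%, 2.96%, 39.0% and 28.3%). At 5000 UMIs that are not immunoglobulin, the shares were 69.8%, 1.55%, 21.2% and 16.6%. Cd69, an early activation antigen, was at 83.3, 47.1, 173 and 104 CPM in members and at 144, 137, 65.7 and 49.3 CPM in other cells. Ccr7, the receptor that holds B cells near the T cell zone, was at 16, 40.4, 113 and 203 CPM against 122, 132, 57.1 and 61 CPM. Both were below the other cells in libraries 5 and 6 and above them in 7 and 8. By list, 6 of 23 ER chaperones were higher in members of libraries 5 and 6 and 1 in 7 and 8, a median difference of 0.79 where other cells had -0.58, and 5 of 8 genes of the unfolded protein response list were higher in 7 and 8 and 1 in 5 and 6 (17.4% and 7.33% of all genes), a median difference of -1.05 where other cells had -0.46.

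Shares of cells with a UMI were also taken with every cell thinned to the same total. Thinning to 5000 UMIs left out 6 members and 656 other cells. Xbp1 was then seen in 88.5% of 139 members and 34.1% of 17733 other cells (95.9% and 54.1% without thinning), and Prdm1 in 33.8% and 2.48% (52.4% and 4.75%). Bach2 was seen in 31.7% and 63.9% (40.7% and 81.8%). Jchain, which chose the members, was left in 0.378% of other cells, where free RNA and low expression cannot be told apart. Sdc1 was seen in 2.88% of members and 1.56% of other cells, 4 members in all. Ms4a1 was seen in 52.5% and 53.0%, but within libraries 5 and 6 in 82.5% of members and 96.6% of other cells, and within 7 and 8 in 27.6% and 12.2%. Immunoglobulin filled part of the members' 5000 UMIs, so cells were also thinned to 5000 UMIs that are not immunoglobulin, an alternative chosen after seeing the data, which left 119 members and 17670 other cells. Xbp1 was then seen in 89.1% and 33.9%, Prdm1 in 34.5% and 2.59%, and Bach2 in 32.8% and 64.2%. Ms4a1 was seen in 92.5% (81.8 to 97.9) of members and 96.7% of other cells of libraries 5 and 6, and in 33.3% (22.2 to 46.0) and 12.1% of those of 7 and 8. The difference for Ms4a1 in libraries 5 and 6 was thus within the counting error at this depth, and that in 7 and 8 was not.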

How the data were processed

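Single-cell 3′ RNA-Seq (Chromium v3) of 4 samples was processed by the authors with bcl2fastq and Cell Ranger 3.1.0 on mm10 (submitters' processing notes), and libraries were combined and normalized by the aggregation step of Cell Ranger, whose mode is not given in the sources used here. The deposited matrix holds whole-number UMI counts per gene and cell. Its last 19920 of 35989 columns were matched, in order, to the deposited barcodes. The other 16069 columns have no barcode here and were not used. Cells with at least 1000 genes and under 10% mitochondrial UMIs were kept. The 145 members had at least 5 Jchain UMIs. The members and the gene lists were chosen with earlier results of these data known. Counts were summed per library over members and over other cells and expressed as CPM, and log2 ratios of CPM + 5 were averaged over 4 libraries. Genes with a mean of at least 20 CPM were compared. Since no barcode names a sample, no test between samples was made. Intervals are exact Poisson or Clopper-Pearson at 95%. Named genes were those of the lists and the 15 called genes at each end that are not immunoglobulin genes, with any others said to be picked after their values were seen. Genes picked in this way were Cd69, those with an ERSE match and the variable genes described. No doublet caller was run. An alternative left out cells above the 95th percentile of UMIs, and others changed the Jchain minimum, cell filters, denominator, scaling, pseudocount, level minimum and libraries used. Cells were thinned to 5000 UMIs for shares, and as an added alternative to 5000 UMIs that are not immunoglobulin. Plain folds and library levels without the cells of highest UMI count were also added after seeing the data. Promoters came from RefSeq (GRCm38.p6) and gene positions from GENCODE on GRCm38. Scripts were tested on simulated data and used Python 3.11.15, NumPy 2.4.6, pandas 2.3.3, SciPy 1.17.1 and matplotlib 3.10.9.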

Additional observations from a re-analysis of the deposited data

Results flagged for a closer look

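In 6 of the 254 genes examined (those of the lists and the named genes at either end of each comparison, which leave out Cd69), members lay above the other cells in both libraries of a pair and below them in both of the other pair, beyond the counting intervals. The difference between the pairs was not tested. Values are CPM in libraries 5, 6, 7 and 8, and the last number of each gene is the log2 ratio of members over other cells in libraries 5 and 6 minus that in 7 and 8. Cd24a, a surface glycoprotein of B cells, was at 705, 745, 357 and 505 CPM in members and at 516, 518, 1092 and 1075 CPM in other cells, a difference of 1.82. Dad1, a subunit of the oligosaccharyltransferase, was at 541, 489.6, 332 and 389.9 CPM against 216, 215, 470 and 457 CPM, a difference of 1.60. Both were higher in members of libraries 5 and 6 and lower in those of 7 and 8. Irf8, a transcription factor of B cells, was at 192, 266, 344 and 270.5 CPM against 539, 564, 202 and 196 CPM, a difference of -1.87. Ccr7 was at 16, 40.4, 113 and 203 CPM against 122, 132, 57.1 and 61 CPM, a difference of -3.39. Ly6d was at 2831, 3444, 889 and 845 CPM against 5287, 5223, 369.6 and 398 CPM, a difference of -1.92. Ighg2b was at 160.1, 162, 444 and 1641 CPM against 424, 408, 286 and 267 CPM, a difference of -2.96, and its values in members of libraries 7 and 8 came mostly from the 2 members with Ighg2b as their heavy chain. For Cd24a, Irf8, Dad1 and Ly6d, the level moved more between the pairs in other cells than in members.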

How the results depend on the processing

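No paired analysis was possible because no barcode names a sample, so that the replicate numbers of the labels could not be carried to the cells. Members and other cells were compared within each library, as values with no test, since the members were chosen from the same counts. The number of members ranged from 135 (Jchain minimum of 10 UMIs) to 153 (mitochondrial limit of 20%). Over 308 results, 3802 values under alternatives were computed, of which 3621 moved by less than the spread between libraries or within 1.5 times, 181 moved further and 0 reversed (a change of sign, counted for called genes and for medians past a log2 ratio of 1, so that turns of smaller values such as the MHC class II median are not among them). Of 117 genes of the lists or named for their ratio that were called against other cells, 29 lost the call under some alternative, most often without library 5. The causes of the following shifts were not tested, beyond the fewer or other cells, libraries or genes each uses. Without immunoglobulin genes in the denominator, 306 genes were higher and 76 lower (191 and 198 in the report). Medians were then -0.03 for all genes, 1.80 for ER-associated degradation and 0.08 for MHC class II. The 6 plasma cell markers include Jchain, which chose the members, so their medians here only describe the chosen cells. That marker median was 3.90 in the main setting and 4.24 without immunoglobulin genes in the denominator. With a pseudocount of 1 CPM, 298 genes were lower and the marker median was 4.17. Without the cells above the 95th percentile of UMIs, 546 genes were lower, the marker median was 4.24 and that of B cell transcription factors -1.32. With a level minimum of 5 CPM, 548 and 1228 genes were apart between the pairs of libraries. Leaving out a library gave 166 to 216 higher genes, 118 (without library 5) to 328 (without library 8) lower genes, 309 to 387 genes higher in members of 5 and 6, and 621 to 937 higher in those of 7 and 8. Medians then ranged from 3.88 to 4.02 for the markers, 1.94 to 2.35 for plasma cell and -1.06 to -0.70 for B cell transcription factors, 1.80 to 2.19 for chaperones, -1.28 to -0.78 for S phase genes and -0.38 to -0.29 for all genes. The members' depth of 312270 to 758923 UMIs per library sets 3 UMIs at 3.95 to 9.61 CPM, under which a level cannot be told from 0. The main limits are that conditions cannot be assigned to libraries, that the matching of columns to barcodes rests on order, and that library 5 held 24 members.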

Other observations

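Of 9 immediate early and NF-κB feedback genes compared, 1 was lower, where 4.35% of all genes compared were lower and the median of all was -0.34. It was the NF-κB inhibitor Nfkbia, at 253, 318, 798 and 663 CPM in members and at 782, 819, 1297 and 1196 CPM in other cells (log2 ratio -1.13, range -1.61 to -0.70). Nfkbia was not called without library 5 (-0.96) or with immunoglobulin left out of the denominator (-0.79). Egr1 (0.41) and Tnfaip3 (-0.13) were not called. Of the 4 cytokine and chemokine genes compared, the chemokine genes Ccl4 and Ccl3 were lower. Ccl4 was at 0, 0, 85.6 and 122 CPM in members against 71.2, 61.9, 326 and 306 CPM, and no UMI of it was seen in members of libraries 5 and 6. Only 9 members had a Ccl4 UMI, and 40.3% of its UMIs in members came from 1 cell. Among 8 survival genes compared, Bcl2 (-1.36) and Bcl2a1d (-1.27) were lower, but Bcl2a1d was not called without library 5 (-0.89) or with immunoglobulin left out of the denominator (-0.95), and Mcl1, on which plasma cells depend, was not called (0.16). Of 3 genes of Toll-like receptor complexes, Ly86, the partner of the receptor homologue CD180, was lower (log2 ratio -1.28, range -1.50 to -0.71). Of 6 regulatory B cell genes, Ctla4 was at 32, 32, 56.7 and 74.4 CPM in members against 3.57, 3.66, 18.4 and 20.4 CPM (log2 ratio 1.81, range 1.40 to 2.11) and Cd9 was also higher, whereas Tgfb1 (-0.75) and Il10 (-0.20) were not called. Lag3, an inhibitory receptor of some IL-10-producing plasma cells, was below the level minimum, at 38.4, 15.1, 27.7 and 15.8 CPM against 0.472, 0.509, 6.71 and 7.08 CPM. Of 6 B-1 and marginal zone genes compared, only Cd9 was called. Of the stromal and endothelial list, Pecam1 was lower (-1.18). With immunoglobulin left out of the denominator, Ly86 (-0.96) and Pecam1 (-0.89) were not called.

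The remaining genes named for the largest negative ratios were Wfdc17 (-2.38), Ifitm2 (-2.02), Tnip3 (-1.94), Marcksl1 (-1.92), Ms4a4c (-1.89), Tespa1 (-1.77), Wfdc21 (-1.77), Hmgn2 (-1.75), Ms4a6b (-1.68), Cebpd (-1.65), Dek (-1.63), Il4i1 (-1.60) and Lrrc25 (-1.58). Wfdc17, a secreted protein of the whey acidic family, was at 60.8, 131, 123 and 331 CPM in members and at 447, 526, 1018 and 1144 CPM in other cells, below them in every library. At least 3 Iglv1 UMIs were seen in 64 members and in 35 of the 18389 other cells. The source of Iglv1 UMIs in cells with a κ chain was not tested.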
